A study of Homo sapiens with 3 samples.

Results

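SNAI1, TWIST1, ZEB1, HIF1A and CD44 are genes of the epithelial-mesenchymal transition (EMT) and of the response to low oxygen that have been named as targets of YBX1. They were looked up in a list of genome regions, called peaks, reported for RNA captured with YBX1. The cells were T24, a line established from a human bladder carcinoma, overexpressing Flag-tagged YBX1. A peak was counted for a gene when it overlapped the gene's span on the hg19 genome build by at least 1 base. Of the 17802 peaks in the list, 6 met this rule. CD44 had 5 of them and HIF1A had 1, while SNAI1, TWIST1 and ZEB1 had none. The rule names the genes and uses no value of the list beyond the overlap, but the set was put together with earlier results of these data known.

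The study captured RNA with Flag-tagged YBX1 overexpressed in T24 cells and read 5-methylcytosine (m5C) in it by bisulfite sequencing. Its 3 groups, with 1 sample each, are the RIP input (lysate set aside before capture), the RNA captured with YBX1 (YBX1 RIP), and such RNA treated with bisulfite. All 3 come from the overexpressing line, per the labels' protocols, although the source label of the bisulfite sample names T25 where its strain label names T24. There is no capture from cells without Flag-YBX1 among them, and no sample with less YBX1. The list of peaks gives positions only, without height, strand, read count or methylation call, so that neither a level nor an m5C site can be given for any of the 5 genes, and markers of T24 cells could not be checked.

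YBX1 is a protein with a cold-shock domain that packages messenger RNA in the cytoplasm and can affect its stability and translation. In the EMT, epithelial cells lose their junctions and gain motility, under transcription factors that repress epithelial genes such as the E-cadherin gene. YBX1 has been reported to promote the translation of SNAI1 and HIF1A messages in tumour cells, and to act at the promoter of CD44. A promoter is DNA, whereas the assay used here was made for bound RNA. Whether any DNA was carried along was not tested. In bladder carcinoma, YBX1 is known as a reader of m5C that stabilises the messages carrying it.

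CD44, which encodes a cell-surface receptor for hyaluronan that is much used as a marker of mesenchymal and stem-like tumour cells, was the only one of the 5 genes with more than 1 YBX1 peak. Its span covers 93.5 kb of chromosome 11, from 35160417 to 35253949 (hg19), and lies on the forward strand in the RefSeq promoter table (GRCh38.p14). The distances given below therefore run in the direction of transcription.

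The first CD44 peak, from 35160527 to 35161044, was 517 bp wide and began 110 bp after the start of the span. The second, from 35174396 to 35174975, was 579 bp wide and began 14.0 kb into the span. The next, from 35178003 to 35178477, was 474 bp wide and began 17.6 kb into it. These 3 peaks lie in the first 19.3% of the span, and the earliest sits at the edge where transcription of the gene begins.

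The fourth peak of CD44, from 35189683 to 35190441, was the widest of the 5 at 758 bp, and began 29.3 kb into the span. The fifth, from 35211282 to 35211744, was 462 bp wide and began 50.9 kb into it. All 5 peaks thus ended within the first 54.9% of the CD44 span. The remaining 42.2 kb up to its far end, or 45.1% of its length, held no peak, and so no peak of the list lay at the 3′ end of the gene. Exons and introns were not assigned, because no annotation on hg19 was used here. It is therefore not known from these data which of these peaks lie over the constant exons, the variable exons for which CD44 is known, or introns.

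**Figure D1:**
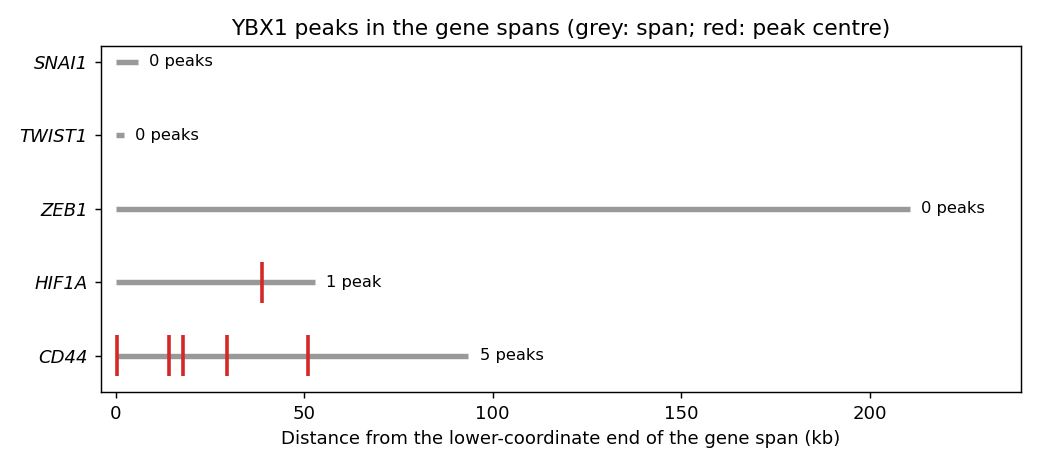
Positions of YBX1 peaks (red, drawn at the peak centre and not to width) along the spans of the 5 genes (grey), with the distance from the lower-coordinate end of each span in kb. CD44 has 5 peaks, all in the first 54.9% of its span, HIF1A has 1 that begins at 38.6 kb, and the spans of SNAI1, TWIST1 and ZEB1 are empty.

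The CD44 peaks mostly lay farther apart than the median gap of the list. The 4 gaps between them measured 13.4, 3.03, 11.2 and 20.8 kb, with a median of 12.3 kb, against a median of 4.76 kb between neighbouring peaks over the whole list. Only the CD44 peaks that begin at 35174396 and 35178003 had a neighbour within 5 kb, whereas 68.0% of all peaks had one. Together the 5 peaks covered 2795 bases, or 2.99% of the CD44 span. They made up 0.543% of the 920 peaks on chromosome 11. Peaks covered 0.378% of the autosomes and the X chromosome, each taken up to its last peak. The CD44 span held 5.35 peaks per 100 kb, against 0.589 over those chromosomes. The chromosome values take in all sequence, transcribed or not.

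The number of peaks in CD44 was set against stretches of equal length. The autosomes and the X chromosome were cut into consecutive tiles as long as the CD44 span, and 14.1% of the 32336 tiles held at least 1 peak. At least 5 peaks, as in CD44, were held by 3.67% of these tiles, which is 26.1% of the tiles with any peak. The median of the tiles with any peak was 2, and the fullest held 48. CD44 was thus above the median of the places with peaks, but 1188 tiles held as many or more. The tiles take in all sequence, transcribed or not, so these shares describe the list and say nothing of how CD44 compares with other expressed genes. Their borders also fall at fixed steps and can cut through a group of peaks, whereas the CD44 span holds its 5 peaks whole.

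HIF1A encodes the oxygen-regulated subunit of hypoxia-inducible factor, which is degraded when oxygen is plentiful and activates genes of glycolysis and blood-vessel growth when it is not. Its span covers 52.9 kb of chromosome 14, from 62162119 to 62214977 (hg19), on the forward strand in the same RefSeq table. The single HIF1A peak ran from 62200711 to 62201111. It began 38.6 kb into the span, at 73.0% of its length, and ended 13.9 kb before the end of the gene. The peak therefore lay in the latter part of HIF1A and at neither end of it, unlike the CD44 peak at the start of that gene.

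The HIF1A peak was 400 bp wide, the smallest width in the list. That exact width was shared by 1138 peaks (6.39% of the list), and no peak was narrower. The HIF1A peak covered 0.759% of the HIF1A span. Over the autosomes and the X chromosome, transcribed or not, peaks covered 0.378%. Since no peak was narrower, any whole peak of the list would cover at least 0.759% of a span of this length. Of 57211 tiles as long as HIF1A, transcribed or not, 9.95% held a peak, and the median of those that did was 2. HIF1A, with 1 peak, was below that median, as were the 2509 of these 5693 tiles that held exactly 1. Because the peak has no height or score, how firmly it was called cannot be given.

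The HIF1A peak also had no close neighbour. The nearest peak before it ended 276 kb away, and the next one after it began 2.12 Mb away. In the list, 857 peaks (4.81%) had no other peak within 100 kb, and HIF1A's was one of them. The stretch after it, from 62201111 to 64319562, was longer than 98.0% of the 17777 distances between neighbouring peaks.

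SNAI1, TWIST1 and ZEB1 encode transcription factors of the EMT. SNAI1 is a zinc finger repressor of the E-cadherin gene, TWIST1 a basic helix-loop-helix factor, and ZEB1 a zinc finger and homeodomain repressor. The SNAI1 span, 5888 bp of chromosome 20 from 48599536 to 48605423, held no peak. The TWIST1 span, 2205 bp of chromosome 7 from 19155091 to 19157295, held none. The ZEB1 span, 210.6 kb of chromosome 10 from 31608101 to 31818742, held none either, although it is the longest of the 5. With their spans extended by 10 kb on both sides, all 3 genes still had no peak.

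Most stretches as long as these 3 genes held no peak. Only 2.56% of 513511 tiles as long as SNAI1 held a peak, as did 1.40% of 1371206 tiles as long as the TWIST1 span. That span is shorter than the 4590 bp of TWIST1 in RefSeq (GRCh38.p14). Of tiles 4125 and 4924 bp long, 2.06% and 2.30% held a peak. For a stretch as long as ZEB1 the share was 22.9% of 14362 tiles. The tiles take in all sequence, transcribed or not, so these shares say nothing of how often an expressed gene holds a peak. The list carries no measure of RNA level, and the input reads were not analysed here. A gene without a peak can therefore not be told apart from a gene whose RNA was scarce in these cells, and an unlisted region is not shown to be unbound.

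**Figure D2:**
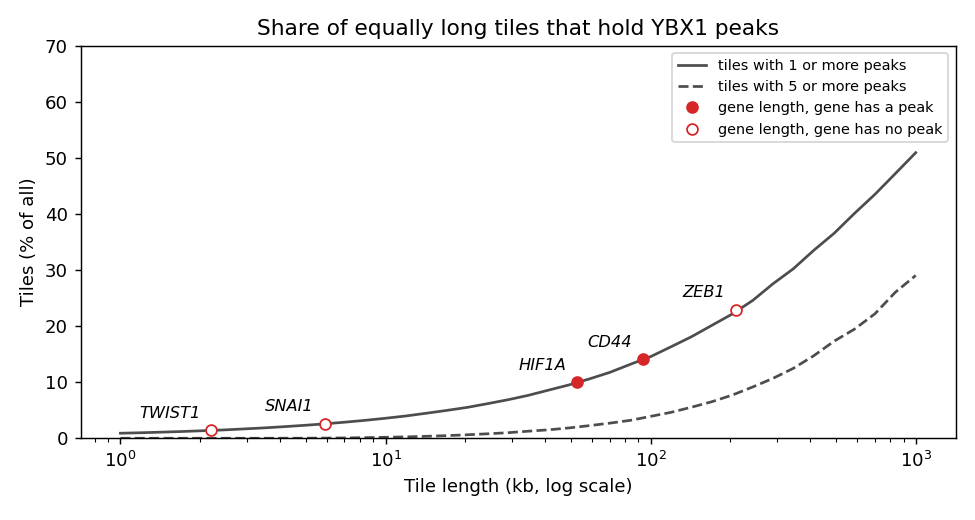
Share of tiles (percent, vertical axis) of a given length (kb, log scale) that held at least 1 peak (solid line) or at least 5 (dashed line), with circles at the length of each gene, filled for genes with a peak. At the length of the CD44 span the solid line is at 14.1% and the dashed line at 3.67%. At the lengths of the TWIST1 and SNAI1 spans the solid line is at 1.40% and 2.56%.

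The surroundings of the genes without a peak differed. TWIST1 lay in a stretch of 2997 kb with no peak at all, from 17373853 to 20370744 on chromosome 7, and 229 of the 17777 distances between neighbouring peaks were longer. ZEB1 lay in a similar stretch of 2.51 Mb on chromosome 10, from 30978563 to 33486390, and 292 distances were longer. These ranks count each distance once, whatever its length. A longer stretch takes up more of its chromosome and so is more likely to hold a given gene. The ranks do not allow for that, and so do not give the share of sequence in such stretches. Within 1 Mb on either side, TWIST1 had no peak and ZEB1 had 1.

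SNAI1 was in a more populated part of its chromosome, with 25 peaks within 1 Mb, of which 21 lay on the side of lower coordinates. The closest peak to SNAI1 ran from 48531743 to 48532143 and ended 67.4 kb before the span, and the next on the other side began 521 kb after it. This peak at 67.4 kb was the nearest of all peaks outside any of the 5 spans to the gene concerned. No gene in the set had a peak just outside its limits that a slightly longer span would have taken in.

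CD44 and HIF1A had fewer peaks around them within 1 Mb than SNAI1. CD44 had 9 further peaks within 1 Mb, 8 of them on the side of lower coordinates, and none within 100 kb of either end. The nearest peak before the CD44 span ended 781 kb away, and the nearest after it began 431 kb away. HIF1A had 4 further peaks within 1 Mb, all on the side of lower coordinates. The 5 CD44 peaks thus form a group of their own that spans 51.2 kb and begins and ends inside the gene.

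**Figure D3:**
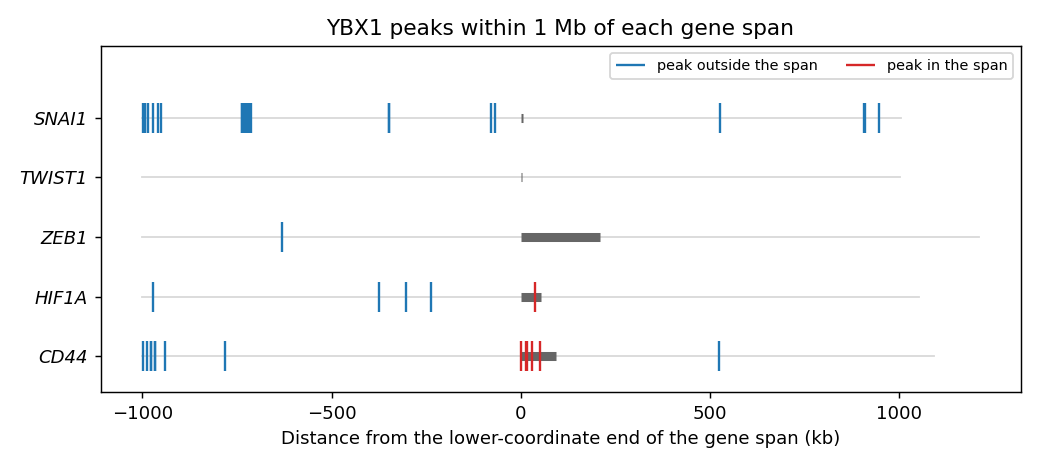
Peaks in the span (red) and outside it (blue) within 1 Mb of each gene span (dark bar), by distance from the lower-coordinate end of the span in kb. The 5 peaks of CD44 and the 1 peak of HIF1A have no other peak within 100 kb of their spans, TWIST1 has none within 1 Mb, and SNAI1 has 25, the closest 67.4 kb away.

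The 6 peaks in CD44 and HIF1A were close in width to the rest of the list. Their widths ran from 400 to 758 bp with a median of 495.5 bp, against a median of 470 bp for all 17802 peaks. The widest CD44 peak, at 758 bp, was wider than 82.1% of the list, and the narrowest, at 462 bp, was wider than 46.1%. Of the 6, 3 reached 500 bp, all in CD44, as did 40.8% of all peaks. The median of the 5 CD44 peaks alone was 517 bp. A width says over how many bases a region was called, and not how much RNA was captured.

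**Figure D4:**
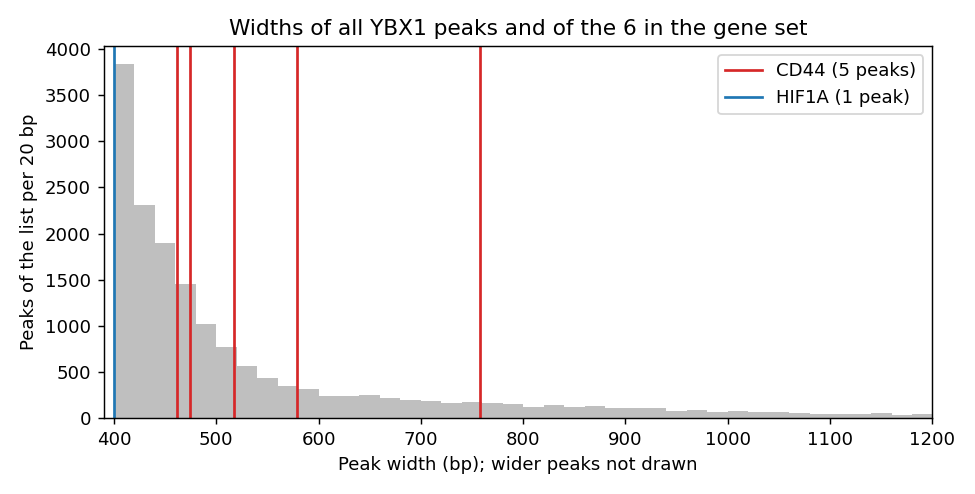
Widths of all YBX1 peaks (grey, number of peaks per 20 bp, wider peaks not drawn) with the 5 CD44 peaks (red lines) and the HIF1A peak (blue line). The HIF1A peak lies at the 400 bp where the widths of the list begin, and the CD44 peaks lie between 462 and 758 bp.

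No test between conditions was possible for these genes. Input, YBX1 RIP and bisulfite-treated RIP have 1 sample each, and the list is not split by sample. The peaks are therefore described without a spread between cultures. The list names no strand, so a peak inside CD44 or HIF1A cannot be told apart from binding to RNA of the opposite strand. In the RefSeq table (GRCh38.p14), the antisense genes HIF1A-AS1, HIF1A-AS2 and HIF1A-AS3 overlap HIF1A. The antisense gene CD44-AS1 and the small nucleolar RNA gene SNORD164 overlap CD44 there. Whether a peak lies over any of them was not tested, since the builds differ. Without a mock capture, specific binding and unspecific recovery of these RNAs cannot be told apart.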

How the data were processed

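T24 cells overexpressing Flag-YBX1 gave the 3 samples (input, RIP, bisulfite-treated RIP). Per the labels' protocols, bound RNA was trimmed with micrococcal nuclease, cleared of ribosomal RNA and read from both ends. The authors deposited 1 list of peaks, whose values are genome positions, per the file headers (chromosome, start, end). Trimmomatic, MACS2 and hg19 are named in the submitters' processing notes. Not given in the sources used here: aligner, threshold and which libraries the peaks come from. Depth is unknown.

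The 5 gene spans on hg19 were set with the gene set and not checked against an hg19 annotation. In RefSeq (GRCh38.p14) the lengths are 5907 bp for SNAI1, 4590 for TWIST1, 211388 for ZEB1, 52746 for HIF1A and 93232 for CD44, so the TWIST1 span of 2205 bp is the one that is shorter by far. Extending it by 10 kb covers that difference. Width is end minus start. Covered bases count both ends. Tiles ran from base 1 of each chromosome to its last peak. Every gene was named, with or without a peak. Genes, spans and measures were chosen with earlier results of these data known. Other EMT and hypoxia genes were not placed, for want of spans on hg19. No peak sequence is given, since no hg19 sequence was used. Functions were tested on simulated data. Python 3.11.15, numpy 2.4.6, pandas 2.3.3, scipy 1.17.1 and matplotlib 3.10.9 were used.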

Additional observations from a re-analysis of the deposited data

How the results depend on the processing

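A count was taken as close when equal or within a set ratio, and the median width when equal. A share was close when inside a 95% interval that treats each base as a separate draw. That interval measures no spread between cultures. Of 52 alternative values, 46 stayed close to the reported ones, most of them because the setting could not act on these peaks. The other 6 all came from keeping only peaks of at least 500 bp, a filter that removes narrow peaks by construction. It left 3 peaks in CD44 covering 1.99% of the span, 0 in HIF1A covering 0%, 1 gene with a peak in place of 2, and 3 peaks in all. Requiring 50% of a peak inside spans, extending these by 1 or 10 kb and merging peaks within 100 bp left every gene's count unchanged. None of these settings could have changed a count here. All 6 peaks lay wholly inside their spans, and those of CD44 were at least 3.03 kb apart. No peak outside a span was nearer to it than 67.4 kb. In the 3 genes without a peak, the width filter and starts counted from 0 could only return 0. Counting starts from 0 was applied to the share of the span only, which went from 2.99% to 2.98% in CD44 and from 0.759% to 0.757% in HIF1A. Tiles moved by 50% of their length, an alternative chosen after seeing the data, gave 14.1% with any peak and 3.65% with at least 5 at the length of CD44. No paired analysis was possible because there is a single sample per group. Read depth is unknown, so how little RNA of these genes would have gone unlisted cannot be given.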
